A study of Mus musculus with 2 samples.

Results

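The mitochondrial carrier family Slc25a was read from 93 probe sets that carry a single gene symbol of that name in the array's annotation. They stand for 44 genes of 18193 genes named on the array, and each gene takes its value from the probe set with the highest mean signal. The 2 samples were diaphragm muscle of C57/BL6 mouse embryos at stage E18.5, 1 labelled RP58 knockout (RP58-/-) and 1 labelled RP58 wild type (RP58+/+), each on 1 Affymetrix array. RP58, a zinc finger protein that represses transcription, goes by the symbol Zbtb18 today, and the comparison asks how muscle RNA differs where it is missing. How many embryos gave each sample, and which part of the gene was deleted, are not given in the sources used here. Nothing else is labelled as differing between the 2 samples. One protocol field speaks of a culture, and the tissue label is followed here.

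Carriers of this family sit mostly in the inner mitochondrial membrane and exchange nucleotides, phosphate, carboxylates, amino acids, cofactors and iron between the cytosol and the matrix. Muscle depends on them for the export of ATP and for moving reducing equivalents into mitochondria, and its main adenine nucleotide carrier is Slc25a4 (Ant1). Some substrates are served by separate genes in different tissues. The aspartate/glutamate exchange is carried by Slc25a12 (aralar) mainly in muscle, heart and brain and by Slc25a13 (citrin) mainly in liver.

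The values are log2 signals that the authors had normalised between arrays, and each difference is knockout minus wild type, as the arrays were labelled. Neither genotype was replicated, so the spread between embryos is unknown, and differences are given without a test. Carriers are called higher or lower from 1.5-fold upwards, which is 0.58 on the log2 scale. A signal floor was set at the 40th percentile of probe set means, log2 5.52. The only repeat measurement was that of several probe sets for a gene, whose differences had a pooled SD of 0.28 over 5675 genes, and of 0.29 over the 16 carriers for which several passed the floor.

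The arrays did not differ by genotype label alone. Zbtb18 itself read 9.21 on the array labelled RP58-/- and 8.91 on the array labelled RP58+/+ (log2), so it did not check the labels, and directions here rest on them. The muscle actin gene Acta1 read 13.36 on the array labelled RP58-/- and 13.95 on the array labelled RP58+/+, and the liver gene Alb 14.30 on the array labelled RP58-/- and 14.23 on the array labelled RP58+/+, so RNA of both tissues was on both arrays. Xist, which shuts down an X chromosome in female cells, read 6.96 on the array labelled RP58-/- and 11.47 on the array labelled RP58+/+. The Y-linked gene Eif2s3y read 8.58 on the array labelled RP58-/- and 3.59 on the array labelled RP58+/+, and Kdm5d read 7.40 on the array labelled RP58-/- and 4.09 on the array labelled RP58+/+. These sex-linked signals differed along with the genotype label, and the effects of sex and genotype cannot be told apart. Markers of muscle fibres were lower in 15 of 20 genes (median -1.41), and markers of liver were higher in 14 of 19 (median 0.86). The shares of all genes were 6.51% lower and 3.83% higher. The summed linear signal of the array labelled RP58-/- was 0.48 times that of the array labelled RP58+/+ for the muscle markers and 1.55 times for the liver markers. In bulk tissue, fewer cells of a type and less RNA per cell cannot be told apart, and the part of these shifts in the carriers' differences was not tested. The 24 poly-A control probe sets, RNAs added from outside, all lay below 0 with a median of -0.75. Each value that follows is thus set against the median gene (-0.003) and not against these controls.

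As a group the carriers went both ways, with more lower than higher. Of 44 carriers, 38 lay above the floor, 6 of them (15.8%) were lower and 2 (5.26%) were higher by 1.5-fold. Over all 14093 genes above the floor, 6.51% were lower and 3.83% were higher. The lower carriers were Slc25a12, Slc25a16, Slc25a4, Slc25a24, Slc25a11 and Slc25a33, and the higher ones were Slc25a47 and Slc25a13. The median difference was -0.13, against -0.003 over all genes, and 25 of the 38 (65.8%) were below 0, against 50.4% of all genes. Under the floor on both arrays lay Slc25a2, Slc25a18, Slc25a31, Slc25a35, Slc25a41 and Slc25a54, among them the germ cell adenine nucleotide carrier Slc25a31 (Ant4).

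**Figure D1:**
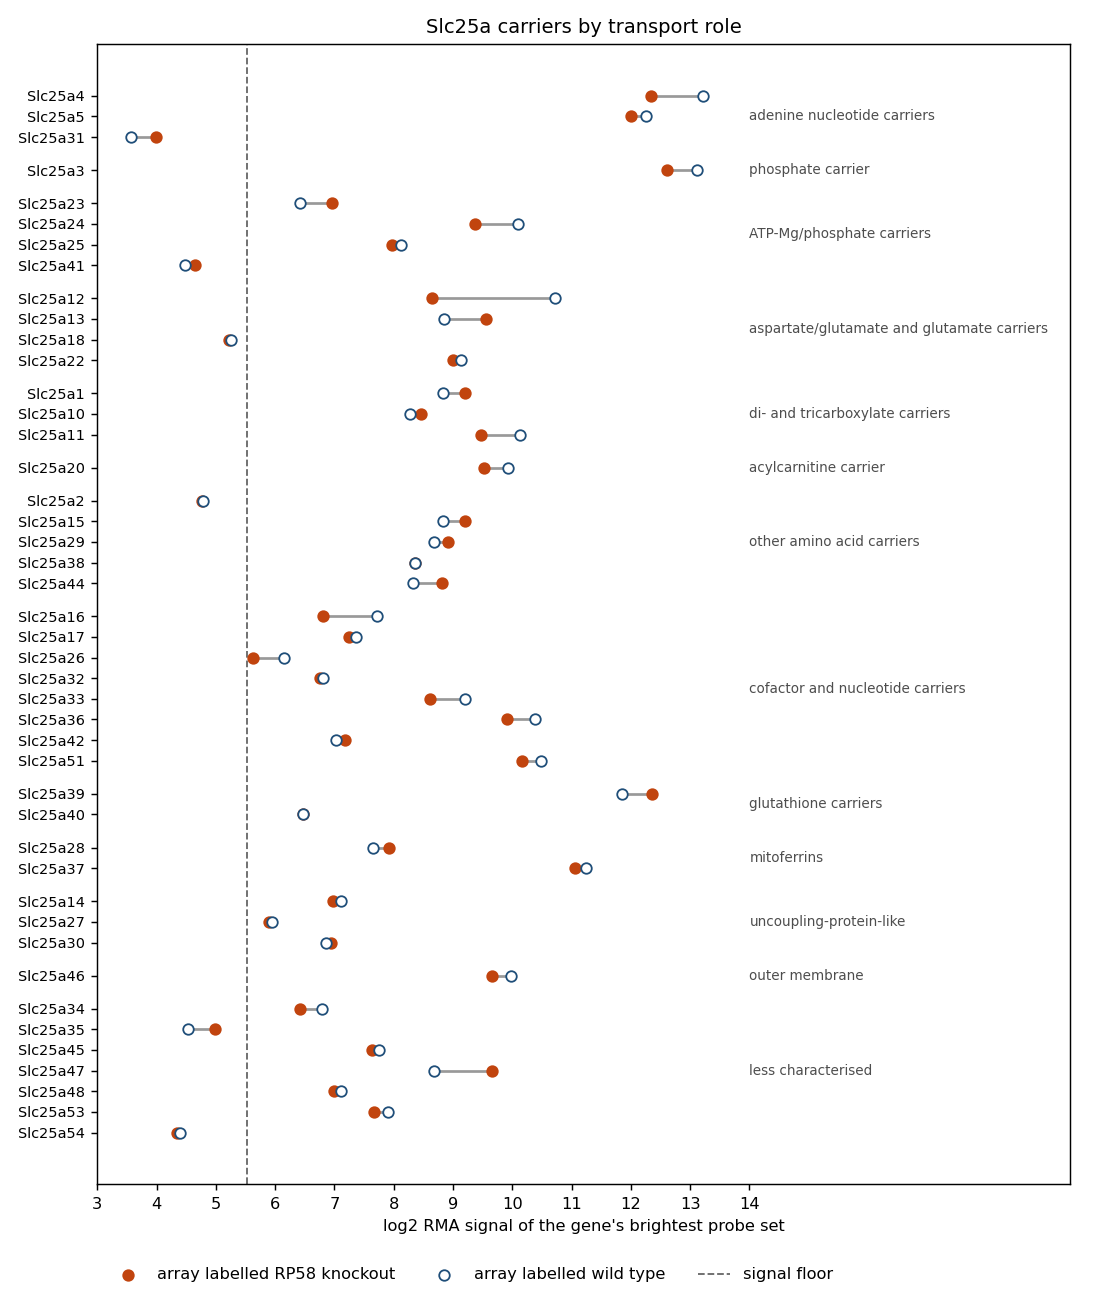
Log2 RMA signal of each of the 44 carriers on the array labelled RP58-/- (filled) and the array labelled RP58+/+ (open), grouped by transport role, with the signal floor at 5.52 dashed. The longest line is that of Slc25a12, at 8.64 on the array labelled RP58-/- and 10.72 on the array labelled RP58+/+.

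The promoters of 4 carriers that passed 1.5-fold are shown because these genes moved apart within a shared function or stand for a tissue: Slc25a12 and Slc25a4, the aspartate/glutamate and adenine nucleotide carriers of muscle, and Slc25a13 and Slc25a47, carriers of liver. The promoter of Slc25a23 is added because it holds the core of the sequence that RP58 is known to bind. Each window runs 5′ to 3′ over 250 bases before and 50 after a RefSeq transcript start (build GRCm38.p6). Capitals mark matches on either strand to the E-box CANNTG, and in Slc25a23 also to the RP58 core ACATCTG, which overlaps an E-box.
Slc25a12 promoter (chr2:71367706-71368005, minus strand): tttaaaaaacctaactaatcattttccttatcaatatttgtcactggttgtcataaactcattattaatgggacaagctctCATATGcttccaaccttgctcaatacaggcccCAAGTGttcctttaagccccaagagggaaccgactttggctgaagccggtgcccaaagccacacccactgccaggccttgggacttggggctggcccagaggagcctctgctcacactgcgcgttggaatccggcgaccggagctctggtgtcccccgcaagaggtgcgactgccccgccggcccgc
Slc25a4 promoter (chr8:46211013-46211312, minus strand): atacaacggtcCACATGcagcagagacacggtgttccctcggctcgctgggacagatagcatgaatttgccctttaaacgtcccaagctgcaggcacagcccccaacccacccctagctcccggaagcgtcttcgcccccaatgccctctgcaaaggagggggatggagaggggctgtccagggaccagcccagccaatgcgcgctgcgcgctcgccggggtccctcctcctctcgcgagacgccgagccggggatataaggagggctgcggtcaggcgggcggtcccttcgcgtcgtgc
Slc25a13 promoter (chr6:6217124-6217423, minus strand): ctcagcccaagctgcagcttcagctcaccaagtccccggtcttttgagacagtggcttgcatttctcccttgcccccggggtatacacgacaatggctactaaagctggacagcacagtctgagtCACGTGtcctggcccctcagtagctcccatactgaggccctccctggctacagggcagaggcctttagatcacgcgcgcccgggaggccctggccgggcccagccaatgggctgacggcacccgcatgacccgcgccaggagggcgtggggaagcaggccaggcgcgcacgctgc
Slc25a47 promoter (chr12:108850879-108851178, plus strand): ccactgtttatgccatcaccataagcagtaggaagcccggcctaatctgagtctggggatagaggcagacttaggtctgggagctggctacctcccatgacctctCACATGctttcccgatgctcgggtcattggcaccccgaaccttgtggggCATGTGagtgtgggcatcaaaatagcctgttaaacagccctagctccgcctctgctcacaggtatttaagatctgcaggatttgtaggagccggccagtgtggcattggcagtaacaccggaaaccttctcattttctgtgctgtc
Slc25a23 promoter (chr17:57059814-57060113, minus strand): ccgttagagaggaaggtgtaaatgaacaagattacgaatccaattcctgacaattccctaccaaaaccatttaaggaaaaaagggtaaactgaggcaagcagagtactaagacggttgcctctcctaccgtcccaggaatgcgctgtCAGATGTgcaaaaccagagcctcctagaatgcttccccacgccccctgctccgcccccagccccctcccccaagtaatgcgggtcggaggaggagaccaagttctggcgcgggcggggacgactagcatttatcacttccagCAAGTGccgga

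RefSeq promoter windows were used for 34 of the 44 carriers (43 windows, since some genes have several starts). The other 10 had no entry or were left out. Carrier windows on chromosome 18, where Slc25a2 and Slc25a46 lie, were left out, while the windows of all genes kept that chromosome. On either strand, the RP58 core ACATCTG was found in 3 of the 43 windows, which belong to Slc25a18 and Slc25a23, and in 4.43% of all 32841 promoter windows. The windows of Slc25a23 overlap and hold the same site, so that site was counted more than once. By gene, 2 of 34 carriers held the core, and Slc25a18 lay under the signal floor. None of the windows of the 8 carriers that passed 1.5-fold held it, which says only that these letters are not within them. The E-box CANNTG, which muscle-forming bHLH factors bind, was in 74.4% of the carriers' windows and in 72.3% of all windows. The half-site AAGGTCA of estrogen-related receptors, known regulators of mitochondrial genes, was in 1 carrier window (Slc25a34) and in 4.72% of all. The NRF1 core GCATGCG was in 2 of 43 carrier windows, those of Slc25a31 and Slc25a54 under the floor, and in 3.58% of all. Of the windows shown, those of Slc25a4 and Slc25a13 held 65.7% and 65.0% G or C and those of Slc25a12 and Slc25a47 held 54.3% and 53.3%, while the carriers' median was 59.7% and that of all windows 52.7%.

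Adenine nucleotide carriers exchange matrix ATP for cytosolic ADP. Of the 2 genes above the floor, 1 was lower by 1.5-fold, beside 6.51% of all genes. Slc25a4 read 12.34 on the array labelled RP58-/- and 13.21 on the array labelled RP58+/+, a difference of -0.88 (1.84-fold lower). Its 3 probe sets above the floor ran from -0.89 to -0.67, so each was lower by 1.5-fold. Slc25a5 (Ant2), the form of proliferating cells, had signals of 12.00 on the array labelled RP58-/- and 12.26 on the array labelled RP58+/+, a difference of -0.25. All 8 of its probe sets were below 0, from -0.86 to -0.22, and 3 of them passed 1.5-fold. Most of these 8 carry the suffix _x_at, which marks probes that may also match other transcripts, and Slc25a5 has pseudogene copies. It also lies on the X chromosome, for which the samples differ in Xist. The 446 X-linked genes above the floor had a median of -0.06, and the other X-linked carriers, Slc25a14 and Slc25a53, were at -0.13 and -0.24.

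The phosphate carrier Slc25a3, which supplies the ATP synthase, had signals of 12.61 on the array labelled RP58-/- and 13.12 on the array labelled RP58+/+ (difference -0.51), inside 1.5-fold. The calcium-sensitive ATP-Mg/phosphate carriers set the size of the matrix nucleotide pool, and they went different ways. Slc25a24 had signals of 9.37 on the array labelled RP58-/- and 10.10 on the array labelled RP58+/+, a difference of -0.74 (1.67-fold lower), and its other probe set was at -0.84. Slc25a23 had signals of 6.96 on the array labelled RP58-/- and 6.42 on the array labelled RP58+/+, a difference of 0.54 just under 1.5-fold. Slc25a25 differed by -0.16 at its brightest probe set but by 0.27 at the next, so its direction was not settled.

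Carriers of the malate-aspartate shuttle, which brings the electrons of cytosolic NADH into mitochondria, showed the widest spread. Slc25a12 read 8.64 on the array labelled RP58-/- and 10.72 on the array labelled RP58+/+. This difference of -2.08 (4.21-fold lower) was the 39th lowest of the 14093 genes and the only carrier past 2-fold, where 2.31% of all genes were lower. Its second probe set above the floor, at signals of 6.37 on the array labelled RP58-/- and 6.71 on the array labelled RP58+/+, differed by -0.34, so the mean of both was -1.21 and the size is uncertain. Slc25a13 went the other way, with signals of 9.56 on the array labelled RP58-/- and 8.85 on the array labelled RP58+/+, a difference of 0.71 (1.63-fold higher) from 1 probe set. The differences of these related genes lay 2.78 apart on the log2 scale. The oxoglutarate/malate carrier Slc25a11, their partner in the shuttle, had signals of 9.48 on the array labelled RP58-/- and 10.13 on the array labelled RP58+/+, and was lower by 0.65 (1.57-fold lower). Among the shuttle's enzymes, the aspartate aminotransferase Got1 of the cytosol was at -0.96 and the malate dehydrogenase Mdh2 of the matrix at -0.80. The other probe set of Mdh2 was at -0.50, inside 1.5-fold. Their counterparts Mdh1 and Got2 were at -0.34 and 0.15, with probe sets on both sides of 0.

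The glutamate carrier Slc25a22 was at -0.13. Carriers of the citrate and dicarboxylate routes, which feed lipid synthesis and gluconeogenesis, were above 0 and inside 1.5-fold. Slc25a1, which exports citrate, had signals of 9.20 on the array labelled RP58-/- and 8.83 on the array labelled RP58+/+ (difference 0.37). The dicarboxylate carrier Slc25a10 was at 0.19 and 0.15 on its 2 probe sets. The acylcarnitine carrier Slc25a20, which admits fatty acids for oxidation, was at -0.41 and -0.39 on its 2 probe sets, also inside 1.5-fold. Of 13 genes of the carnitine shuttle and beta-oxidation, 0 passed 1.5-fold in either direction at their brightest probe sets. Of all genes, 6.51% were lower and 3.83% were higher. In this list 7 were below 0 and 6 above, and Cpt2, the enzyme that frees the acyl group inside, was at 0.12. Other probe sets passed 1.5-fold for Crat (-0.82), Cpt1a (0.75) and Acaa2 (0.76).

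**Figure D2:**
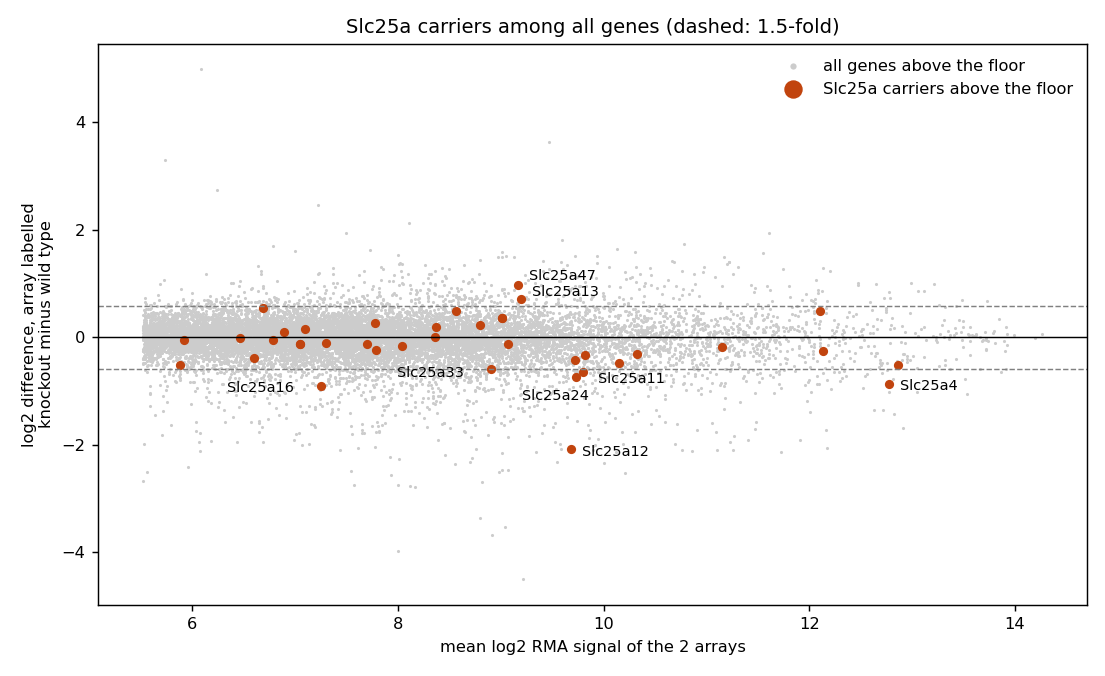
Difference of log2 signal (array labelled RP58-/- minus array labelled RP58+/+) against the mean log2 signal of both arrays for 14093 genes above the floor (grey) and the 38 carriers among them (orange), with the 8 carriers past 1.5-fold named. Slc25a12 is the lowest carrier at -2.08 and Slc25a47 the highest at 0.97.

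The 4 other amino acid carriers above the floor all had differences above 0, and 0 of them passed 1.5-fold. Over all genes above the floor, 50.4% were below 0, 6.51% were lower and 3.83% were higher. The ornithine carrier Slc25a15 of the urea cycle had signals of 9.20 on the array labelled RP58-/- and 8.83 on the array labelled RP58+/+ (difference 0.37), and its dimmer probe set was at 0.48. Slc25a44, a carrier of branched-chain amino acids, had signals of 8.81 on the array labelled RP58-/- and 8.33 on the array labelled RP58+/+, and its 3 probe sets lay between 0.45 and 0.55. The basic amino acid carrier Slc25a29 differed by 0.22 at its brightest probe set and between 0.01 and 0.08 on the other 4. Slc25a38, the glycine carrier needed for heme synthesis, was at 0.01.

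Slc25a47, a carrier made mainly in liver, had the highest difference of the family. Its signal was 9.65 on the array labelled RP58-/- and 8.68 on the array labelled RP58+/+, 0.97 on the log2 scale (1.96-fold higher), from 1 probe set. It went the same way as the liver markers, of which Bhmt differed by 1.94 and Alb, near the top of the scale on both arrays, by 0.07. All 19 liver markers were above 0, whereas 50.4% of all genes were below 0. The part of the liver signal in the values of Slc25a47, Slc25a13 and Slc25a15 was not tested.

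Of the 8 cofactor and nucleotide carriers, 7 were below 0, 2 were lower by 1.5-fold and the median was -0.40. Over all genes above the floor, 50.4% were below 0, 6.51% were lower and the median was -0.003. Slc25a16, linked to coenzyme A import, had signals of 6.80 on the array labelled RP58-/- and 7.71 on the array labelled RP58+/+, a difference of -0.91 (1.88-fold lower) from 1 probe set. The pyrimidine nucleotide carrier Slc25a33 had signals of 8.60 on the array labelled RP58-/- and 9.20 on the array labelled RP58+/+, a difference of -0.60 (1.51-fold lower) that just passed the size rule. Slc25a36, the other pyrimidine nucleotide carrier, had signals of 9.91 on the array labelled RP58-/- and 10.39 on the array labelled RP58+/+ (difference -0.48), while its dimmer probe sets were at -0.91 and -0.86. The S-adenosylmethionine carrier Slc25a26 was at -0.52. The NAD carrier Slc25a51 ran from -0.32 to 0.18 over its 3 probe sets. The folate carrier Slc25a32 (-0.05) and the peroxisomal carrier Slc25a17 (-0.11) lay within the spread of probe sets, as did the coenzyme A carrier Slc25a42 (0.16).

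Carriers of glutathione and iron stayed inside 1.5-fold at their brightest probe sets. Slc25a39, which imports glutathione, had signals of 12.35 on the array labelled RP58-/- and 11.85 on the array labelled RP58+/+. Its difference was 0.50, and its 5 probe sets were all above 0, from 0.22 to 0.60, of which 1 passed 1.5-fold. Its relative Slc25a40 had a signal of 6.47 on both arrays. The iron importers mitoferrin 1 (Slc25a37), the form of red cell precursors, and mitoferrin 2 (Slc25a28) were at -0.18 and 0.28. Erythroid markers had a median of -0.07, with 1 of 11 lower and 1 higher, and Alas2, which starts heme synthesis in red cell precursors, was at 0.35. Of 13 genes of heme and iron-sulfur synthesis, Ppox (-0.81) and Isca1 (-0.60) were lower and 0 were higher. The shares of all genes were 6.51% lower and 3.83% higher. Another probe set of Ppox was at 0.24 and another of Isca1 at -0.44.

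Relatives of the uncoupling proteins, Slc25a14, Slc25a27 and Slc25a30, were at -0.13, -0.05 and 0.09, each below the probe set SD. Slc25a46, a family member of the outer membrane that takes part in mitochondrial shape, differed by -0.32 at its brightest probe set and by -0.86 at the other. The carriers of less certain substrate, Slc25a34 (-0.38), Slc25a53 (-0.24), Slc25a48 (-0.13) and Slc25a45 (-0.12), stayed inside 1.5-fold.

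Probe sets of a carrier mostly went the same way. Of the 16 carriers with several probe sets above the floor, 13 had all of them on the same side of 0, and Slc25a25, Slc25a30 and Slc25a51 did not. The matching share over all genes with several probe sets was not computed. Some shared signs were slight, as for Slc25a32 at -0.05 and -0.01, inside the probe set SD. Slc25a11, Slc25a13, Slc25a16, Slc25a33 and Slc25a47, which passed 1.5-fold, had no second probe set above the floor. The widest gap was that of Slc25a12.

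**Figure D3:**
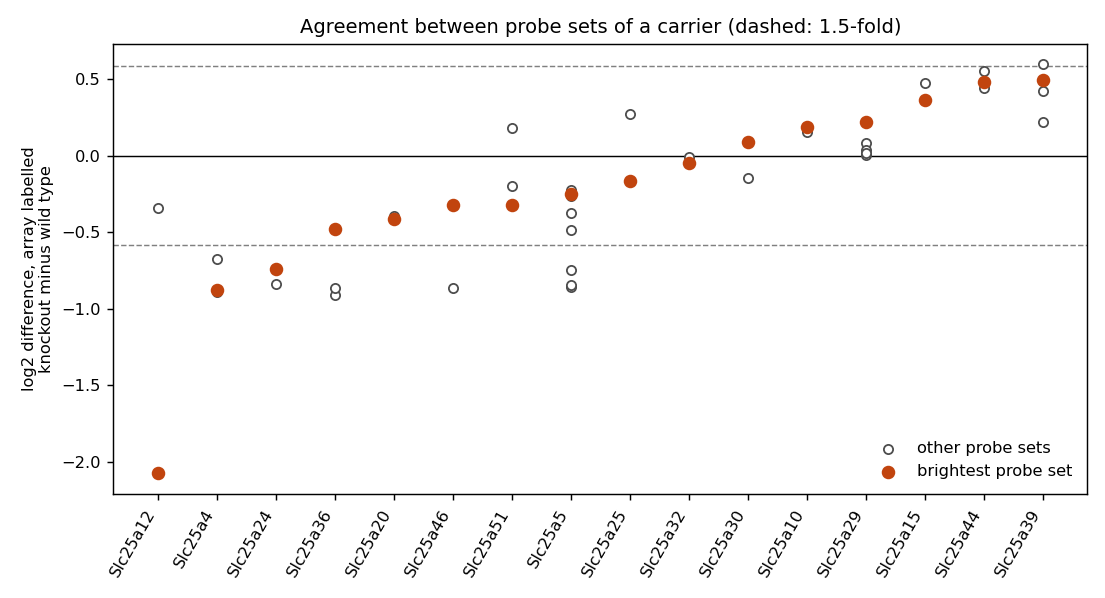
Difference of log2 signal for every probe set above the floor of the 16 carriers with more than 1, with the brightest probe set filled and the others open. Slc25a4 and Slc25a24 have each probe set below -0.58 (dashed), whereas the 8 probe sets of Slc25a5 run from -0.86 to -0.22.

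The share of carriers below 0 was much the same in the brighter 20 and the dimmer 18, but it was higher among the brightest 10. Of the 20 with the highest mean signal 13 were below 0, 5 were lower and 2 higher by 1.5-fold, with a median of -0.28. Among all genes above the floor, 6.51% were lower and 3.83% were higher. The 3978 genes at least as bright as these 20 were below 0 in 54.5%, with a median of -0.03. Of the 18 dimmest above the floor 12 were below 0, with a median of -0.08. Within the brightest 20, the 10 at the top had 9 below 0 (all but Slc25a39) and a median of -0.40. The 1641 genes at least as bright as these 10 were below 0 in 53.6%, with a median of -0.03. Signals of different probe sets are not levels of RNA that can be set against each other, and this describes a range of signal only.

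Other mitochondrial genes on the same arrays gave the carriers a context. Of 62 genes of oxidative phosphorylation, 23 were lower by 1.5-fold, 0 were higher and 61 were below 0, and the median was -0.53. The shares of all genes, for this list and the next, were 6.51% lower, 3.83% higher and 50.4% below 0. Those furthest from 0 were Cox7a1 (3.99-fold lower), Cox6a2 (-1.13) and Cox8b (-1.01), isoforms of cytochrome oxidase in muscle, and Ndufa5 of complex I (-1.04). Of 22 enzymes of the citric acid cycle, pyruvate entry and the shuttles, 11 were lower and 0 were higher. Their median was -0.60, and they were led by Idh3a (-1.77), Dlat (-1.33), Sucla2 (-1.05) and Cs (-0.98). Other probe sets of Idh3a came as near to 0 as -0.28. The carriers' median of -0.13 was nearer to 0 than either, and the difference between the groups was not tested.

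Genes of proteins that work beside Slc25a4 were lower in part. The mitochondrial creatine kinase Ckmt2, which takes up the exported ATP in muscle, had signals of 8.95 on the array labelled RP58-/- and 11.47 on the array labelled RP58+/+, a difference of -2.52 (5.73-fold lower). The outer membrane channel Vdac2 was at -0.71, Vdac1 at -0.55 and Vdac3 at -0.44, and the 4 probe sets of Vdac1 reached down to -1.41. Ppif, the cyclophilin of the permeability pore, was at -0.78, and its other probe set at -0.33 was inside 1.5-fold. Ckmt1, the form of other tissues, was at 0.67, with another probe set at -0.55. In all, this list of 10 genes had 3 lower, 1 higher and a median of -0.49, beside 6.51% lower and 3.83% higher of all genes.

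Of 15 transporters of the inner membrane outside the family, 1 (6.67%) was lower and 0 were higher, beside 6.51% and 3.83% of all genes, and their median was -0.07. Averaging probe sets gave 1 lower, 1 higher and a median of 0.05. The lower gene was Mcu, the pore of the calcium uniporter, at -0.75, while its regulators Micu2 and Smdt1 were at -0.07 and -0.32. The pyruvate carrier subunit Mpc1 was at -0.17, and the serine transporter Sfxn1 at 0.27. Sfxn2 had the highest difference of this list, at 0.56 on its brightest probe set and up to 0.92 over its 3 probe sets. Family proteins under other symbols stayed inside 1.5-fold, with Mtch2 at -0.29, Mtch1 at 0.08 and the uncoupling protein of muscle, Ucp3, at -0.36. Another probe set of Ucp3 was at 0.07, so its direction was not settled. Ucp1, the uncoupling protein of brown fat, had signals of 5.70 on the array labelled RP58-/- and 5.75 on the array labelled RP58+/+, close to the floor.

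**Figure D4:**
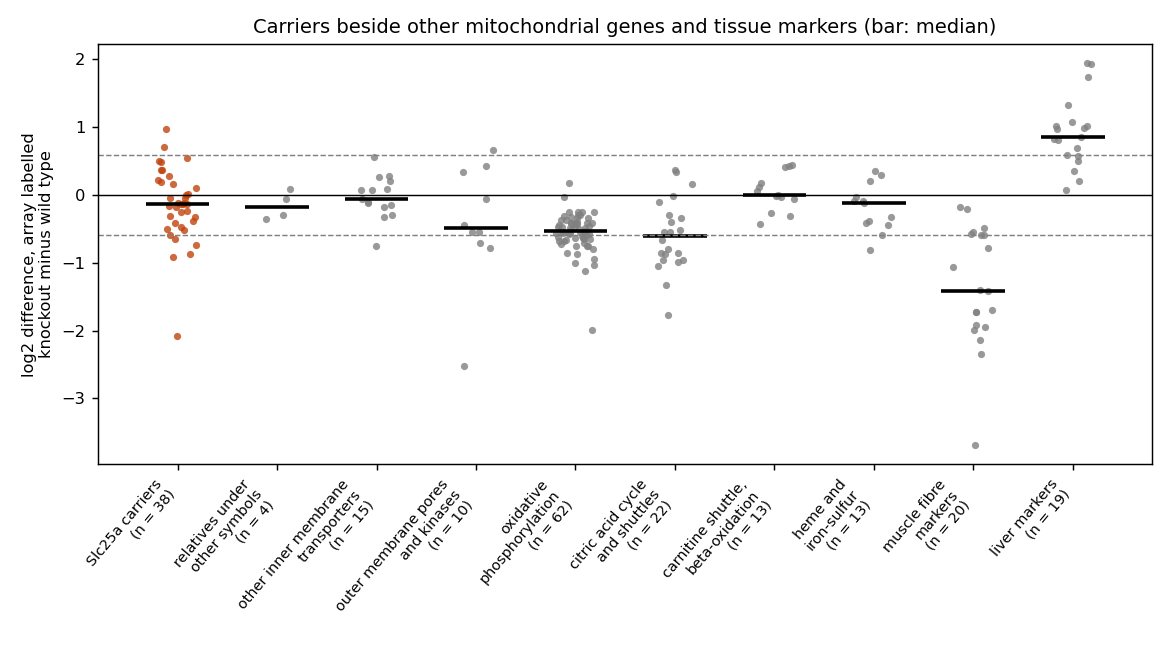
Difference of log2 signal (array labelled RP58-/- minus array labelled RP58+/+) of each gene above the floor in the carrier family (orange) and in other mitochondrial and marker lists (grey), with bars at the medians and dashed lines at 1.5-fold. The carriers' median is -0.13, that of oxidative phosphorylation -0.53, that of muscle fibre markers -1.41 and that of liver markers 0.86.

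Markers of other tissues that the dissection could hold are given for the same arrays. Lung epithelium markers had a median of 0.56 (3 of 6 above the floor higher), led by Sftpc at 3.64. Of the 9 lung markers on the array, Sftpa1 (1.33), Nkx2-1 (-0.06) and Scgb1a1 (-0.47) lay under the floor. Mesothelium markers had a median of 0.60 (4 of 8 higher), and macrophage and neutrophil markers 0.46 (3 of 12 higher). The shares of all genes were 6.51% lower and 3.83% higher. Endothelial markers had a median of -0.33 (2 of 7 lower), and adipocyte markers -0.27, with 2 of 6 lower and 1 higher. The lowest adipocyte marker was Cox8b (-1.01), which is also counted under oxidative phosphorylation and named there as an isoform in muscle. Connective tissue markers had a median of 0.26 (2 of 8 higher) and Schwann cell markers 0.36 (0 of 4 higher). The part of these tissues in the carriers' differences was not tested.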

How the data were processed

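Diaphragm RNA of 1 sample labelled RP58 knockout and 1 labelled wild type was hybridised to Affymetrix mouse arrays. The deposited values are log2 signals per probe set, computed by the authors with RMA per the series' design text. The submitters' processing notes name Affymetrix Expression Console 1.1. RMA equalises the distributions of arrays, gives no detection call and compresses differences of dim and very bright probe sets. Depth does not apply to arrays, and their number limits the precision. Of 45101 probe sets, 34945 had 1 gene symbol in the platform annotation and were used, and 932 with several were not (1 of them named Slc25a37). Symbols were matched exactly.

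Differences (knockout minus wild type, by label) were computed with Python 3.11.15 and pandas 2.3.3, checked on simulated data, and read against the 1.5-fold rule. Any carrier could be named. Of each companion list, genes past that rule (at most 4) were named. Functional partners and some genes with another probe set past the rule were also named, chosen after their values were seen. Of marker lists, the brightest or furthest were named, and of the lung list also those under the floor. Members and lists were chosen with earlier results of these data known. Alternatives were the mean or the second brightest probe set, other floors, centring by median or loess (fraction 0.3, statsmodels 0.14.6), leaving out the _s_at, _x_at and _a_at kinds, and a 2-fold rule.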

Additional observations from a re-analysis of the deposited data

How the results depend on the processing

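The counts of 6 lower and 2 higher carriers stayed within 1.5 times under the other floors and both centrings. With the 2-fold rule 1 was lower and 0 were higher. With the suffixes _s_at, _x_at and _a_at left out, 1 was higher and 7 were lower among 32 carriers. Slc25a47 and Slc25a4 then had no probe set above the floor, while Slc25a5 and Slc25a36 were added to the lower ones. These additions were read from dimmer probe sets of their genes. Averaging probe sets gave 8 lower, with Slc25a36 and Slc25a46 added. The carriers' median ran from -0.13 to -0.08. Each of the 8 carriers past 1.5-fold kept its sign under each alternative that gave a value. Slc25a33 fell inside 1.5-fold under loess centring (-0.57), and Slc25a12 did so on its second probe set (-0.34). Slc25a5 passed 1.5-fold without those suffixes (-0.75). No paired analysis was possible because each group has 1 array. For the same reason no array could be left out.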
